A study of Drosophila melanogaster with 3 samples.

Results

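Genes of the Drosophila Decapentaplegic (Dpp) and bone morphogenetic protein (BMP) signalling pathway were examined as places where a tagged zinc finger protein was recovered on DNA: dpp, gbb, tkv, sax, put, Mad, Med, shn, brk and sbb. They are 10 of the 18164 genes annotated on the 6 chromosome arms, and 46 thresholded peaks (1.04% of those in the dataset) had their summit inside one of these genes or within 5 kb of it, a stretch called the locus below. The genes were listed by name, and the list was selected on peak positions, signals and ranks of these same data that were already known. Their peaks are therefore given as a description, without a test. The measurement was chromatin immunoprecipitation with sequencing (ChIP-seq) in whole Drosophila melanogaster prepupae, males and females pooled and of unknown age, from a transgenic line that carries CG8319 with a C-terminal green fluorescent protein. An anti-GFP antibody recovered the fusion protein, after sonication to fragments of 200 to 800 bp. There was 1 group, with 3 biological replicates from the same line, so nothing was compared between conditions. What drives the transgene is not given in the labels, and in whole animals a peak cannot be assigned to a tissue.

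Dpp and Gbb are secreted BMP ligands that bind complexes of type I receptors (Tkv, Sax) and type II receptors (Punt, the product of put). Active receptors phosphorylate Mad, which enters the nucleus with the co-Smad Medea (Med) and, together with the zinc finger protein Schnurri (shn), silences brk. Brinker (brk) is itself a repressor of Dpp target genes, so Dpp signalling switches targets on largely by removing it. sbb, also known as brakeless and master of thickveins, encodes a nuclear corepressor known for limiting tkv expression in the wing. In imaginal discs the pathway sets growth and pattern of wings and other appendages, and at metamorphosis it acts in wing veins and in thorax closure.

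The sequences at the summits are shown first, because most of the peaks of these genes, like those of the dataset, were richer in A and T at the summit than beside it. Each window reaches 50 bp to either side of a summit, and is written 5′ to 3′ on the plus strand of the RefSeq genome (Release 6, the dm6 build), with runs of 6 or more A or T bases in capitals. The set holds the strongest peak of each gene outside the arms whose sequence is not printed here, the other peaks of these genes among the 1000 strongest of the dataset, and the 1 peak that lies at a start site of such a gene.
dpp intron 1, strongest dpp peak (chr2L:2433598-2433698): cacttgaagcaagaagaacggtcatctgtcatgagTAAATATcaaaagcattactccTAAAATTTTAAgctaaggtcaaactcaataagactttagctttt
tkv intron 1, strongest tkv peak (chr2L:5254274-5254374): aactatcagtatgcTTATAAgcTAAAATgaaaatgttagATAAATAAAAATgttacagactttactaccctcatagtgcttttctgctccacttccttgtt
tkv intron 1, next strongest tkv peak (chr2L:5261370-5261470): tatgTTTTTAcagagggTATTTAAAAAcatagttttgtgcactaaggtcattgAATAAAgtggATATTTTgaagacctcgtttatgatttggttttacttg
tkv internal start site (chr2L:5237408-5237508): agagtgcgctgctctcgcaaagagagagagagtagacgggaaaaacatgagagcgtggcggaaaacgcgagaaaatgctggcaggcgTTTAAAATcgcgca
put intron 1 (chr3R:14624164-14624264): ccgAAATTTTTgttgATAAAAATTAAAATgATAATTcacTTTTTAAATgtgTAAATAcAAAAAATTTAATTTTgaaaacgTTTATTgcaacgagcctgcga
Mad intron 1 (chr2L:3153348-3153448): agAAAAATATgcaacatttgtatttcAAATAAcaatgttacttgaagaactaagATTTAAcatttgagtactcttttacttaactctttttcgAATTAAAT
Med downstream, at Mnat9 (chr3R:31616130-31616230): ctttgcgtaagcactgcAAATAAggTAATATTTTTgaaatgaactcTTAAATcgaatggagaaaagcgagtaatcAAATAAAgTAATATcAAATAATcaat
brk upstream, near (chrX:7307115-7307215): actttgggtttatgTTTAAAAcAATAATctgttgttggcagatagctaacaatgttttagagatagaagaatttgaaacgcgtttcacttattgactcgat
brk upstream, far (chrX:7305945-7306045): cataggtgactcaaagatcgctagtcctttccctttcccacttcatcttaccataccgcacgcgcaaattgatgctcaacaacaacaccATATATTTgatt
A and T made up 76.2% of the put window and 77.2% of the Mad window, and capitals cover 64 bases of the put window. The tkv start-site window differed, with 47.5% A or T, a single run of 8 bases, and a stretch of repeated GA instead. The far brk window also held a single run of 8 bases, with 57.4% A or T.

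The lists behind these values are those of the authors' peak caller. The optimal list holds the peaks that passed an irreproducible discovery rate (IDR) threshold, and these were exactly the highest-signal entries of the pooled list. As many of the highest-signal entries of a replicate list as the optimal list holds are called its top peaks. The pooled list and each replicate list hold 30000 ranked regions, background included. Signal is the deposited value of each peak. Its scale differs between lists, so a relative signal was used across replicates: the strongest listed region that overlaps the peak, divided by the median of the same over all optimal peaks, which was 37.1, 72.3 and 42.6 in replicates 1, 2 and 3. Read depth is unknown, so no counting interval is given.

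Every one of the 10 loci held an optimal summit, which the choice of genes partly fixes. Over all protein-coding genes 40.8% of loci held one (5684 of 13945). The median of those loci was 12.2 kb, while the 10 loci ran from 11.7 to 89.1 kb, so the shares were not matched for length. The peaks were unevenly shared: sbb had 17, shn 12, tkv 5, dpp 4 and brk 3, while gbb, sax, put, Mad and Med had 1 each. The 4 longest loci (sbb, shn, tkv and dpp) thus held 38 of the 46. Their median signal was 184, against 145 over all optimal peaks, with a range from 88.6 to 927. Of the 46 peaks, 35 (76.1%) overlapped a top peak of every replicate, 10 did so in 2 replicates and 1 in a single replicate. Among all optimal peaks the share for every replicate was 66.1%. All 46 overlapped a listed region of some rank in each replicate. In 6 cases a peak overlapped a stronger one beside it (3 in shn, 2 in sbb, 1 in brk), so the 46 correspond to 40 separate sites, and such neighbours share the same replicate region. With overlapping peaks merged, 29 of the 40 sites overlapped a top peak of every replicate. The 66.1% over all optimal peaks was counted without merging.

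Of the ligand genes, dpp carried its peaks in and before its long intron 1 and gbb carried a single peak that sits at the start of other genes. The strongest dpp peak (FBgn0000490, chr2L:2433504-2433769) lay 5276 bp downstream of the most upstream start site, in an intron of 21.1 kb. Its signal was 449 in the pooled list, rank 235, and 139, 208 and 108 in replicates 1, 2 and 3. It was among the 358 strongest regions of each replicate, with a relative signal of 3.05 ± 0.634 (SD, n = 3). The other dpp peaks were weaker. One in the same intron, 4615 bp downstream of that start site, had a signal of 131 (chr2L:2432782-2433191), and one 8095 bp downstream of it had a signal of 100.67 (chr2L:2436262-2436671). The latter ranked 2124 in replicate 3 and 13391 in replicate 1, so replicate 1 placed it far below the other replicates. A peak 1721 bp upstream of the gene had a signal of 114 (chr2L:2426446-2426855) and lay nearer to a long non-coding RNA, lncRNA:CR44912, at 1230 bp.

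None of the 4 dpp start sites had an optimal summit within 500 bp. At the most upstream one the pooled list held regions of at most 36.2, rank 13288, and at the internal sites at most 28.7. The intron peaks of dpp therefore lay far from any annotated start, as the map of the long loci shows.

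The gbb peak (FBgn0024234, chr2R:23850249-23850555) was the strongest of all 46, with a signal of 927 and rank 37. Its summit lay 1162 bp upstream of gbb, but 70 bp from the start of the antisense RNA asRNA:CR45928 and 99 bp from that of eIF6, a ribosome biogenesis and translation factor, inside the gene ytr. The replicates gave 226, 412 and 276, which are ranks 28, 53 and 33. The start site of gbb itself had no pooled region within 500 bp.

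**Figure D1:**
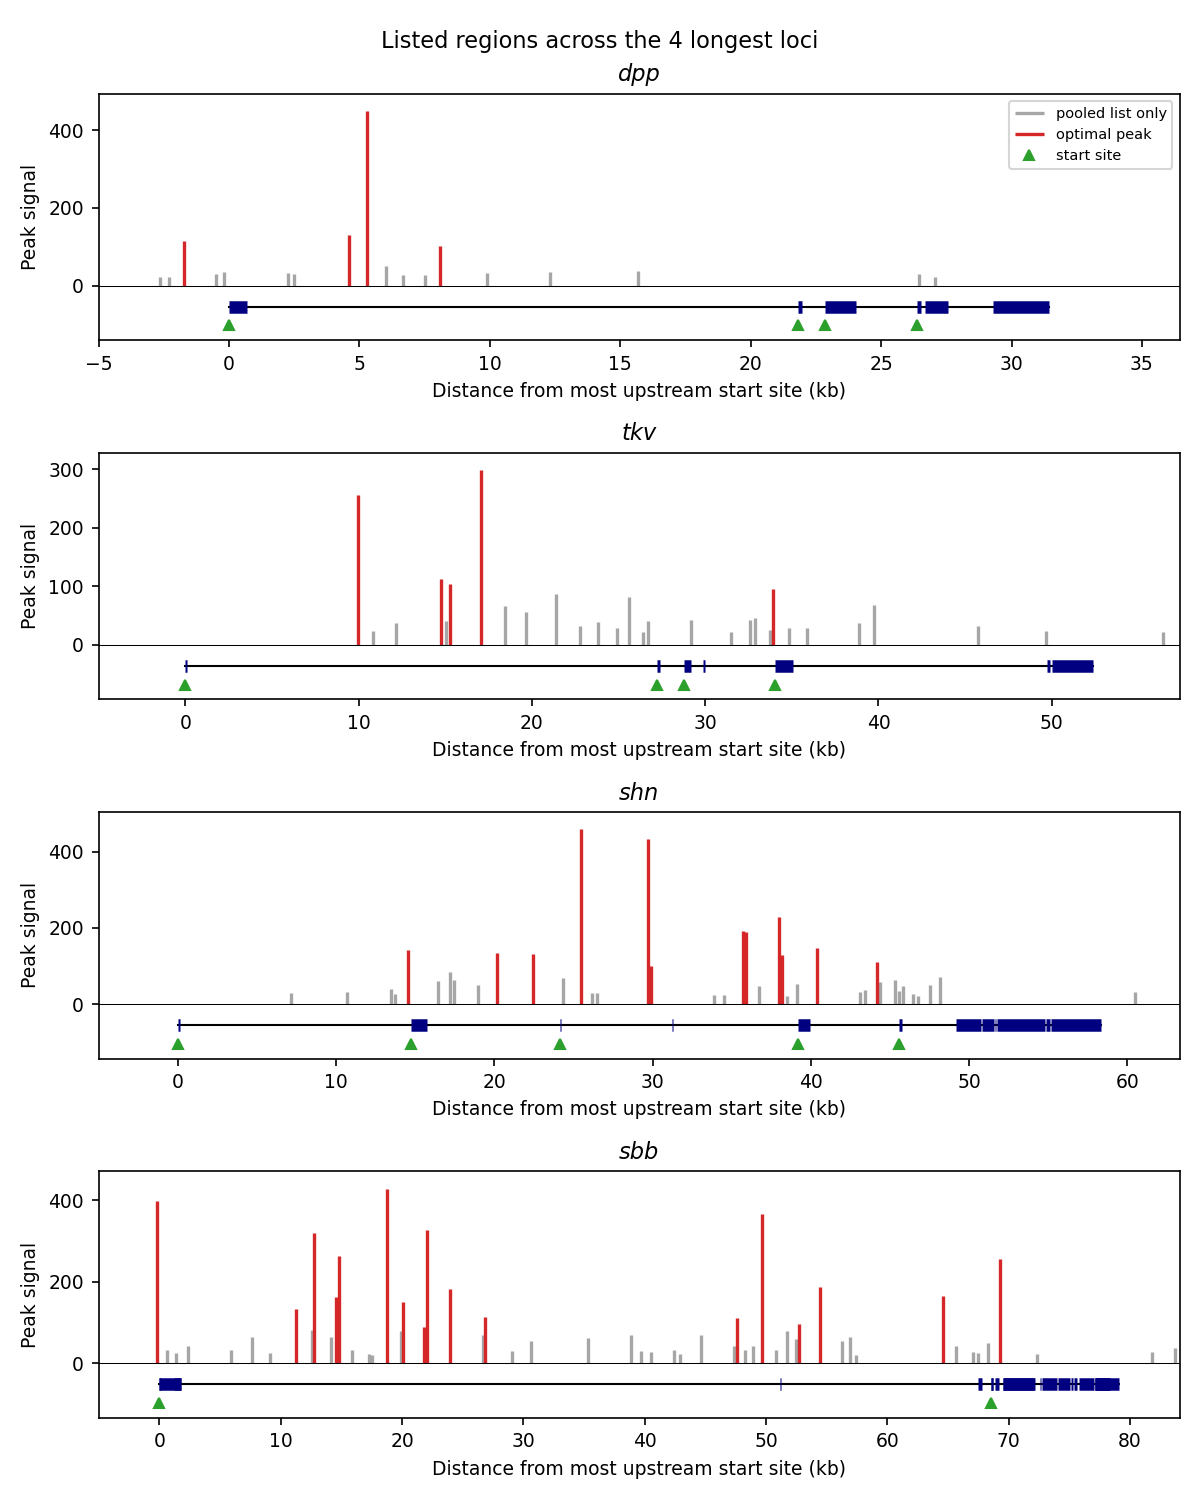
Listed regions in the dpp, tkv, shn and sbb loci, by signal in the pooled list (vertical axis) and distance from the most upstream start site in the direction of transcription (horizontal axis, kb). Red lines are optimal peaks, grey lines are regions of the pooled list alone, blue boxes are exons and green triangles are start sites. Most red lines stand in introns, and dpp, shn and sbb each reach above 400.

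Of the receptor genes, tkv had several peaks in its introns, put had 1, and the sax peak sits between its neighbours. tkv (FBgn0003716, chr2L:5219000-5271384, minus strand) had 5 optimal peaks, all in introns. The strongest (chr2L:5254254-5254388, signal 298, rank 614) lay 17060 bp downstream of the most upstream start site, in an intron 1 of 27.1 kb. The replicates gave 65.1, 143 and 78.2, ranks 770, 626 and 733, a relative signal of 1.86 ± 0.111 (SD, n = 3). The next (chr2L:5261353-5261471, signal 256) lay 9964 bp downstream of that site, with ranks 559, 1129 and 987. Between them stood peaks of 113 and 104. These 4 intron 1 peaks lay within 7.10 kb of each other. The start nearest to each was that of a long non-coding RNA, lncRNA:CR44744, at 2307 to 4618 bp. Their nearest tkv starts were 9964 to 12496 bp away.

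The tkv peak at a start site was the only one of the 46 that overlapped a top peak in a single replicate, replicate 1. It lay 96 bp upstream of the start of transcript tkv-RD (chr2L:5237253-5237662), with a signal of 96.1. Its replicate ranks were 1717, 4930 and 9410. The other 3 start sites of tkv had no optimal summit within 500 bp. The tkv locus also held the first region below the optimal list: at chr2L:5249770-5250179 the pooled list had a signal of 87.31 and rank 4411, while the weakest peak inside the list among these genes was one of sbb, with 88.63 and rank 4337.

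The single put peak (FBgn0003169, chr3R:14624009-14624418) lay in intron 1, 1489 bp downstream of the only start site. Its signal was 194, rank 1388, with 45.5, 93.2 and 58.2 in the replicates, a relative signal of 1.29 ± 0.0700 (SD, n = 3). The start site of put had only unthresholded regions, of at most 60.8. The sax locus (FBgn0003317) held 1 peak, chr2R:7812164-7812573 (signal 228, rank 1025), which lay past the 3′ end of the gene. It was 5772 bp from the nearest sax start site, 135 bp from that of puml and 341 bp from that of TTLL12. The sax start sites had no pooled region within 500 bp.

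Of the Smad genes, Mad had an intronic peak and Med had none of its own. The Mad peak (FBgn0011648, chr2L:3153193-3153602, signal 224, rank 1052) lay in intron 1, 645 bp upstream of the downstream start site and 6245 bp from the upstream one. The replicates gave 50.4, 105 and 70.1, a relative signal of 1.48 ± 0.148 (SD, n = 3). The peak in the Med locus (FBgn0288966, chr3R:31616029-31616325) was strong, with a signal of 741 and rank 68, and ranks 74, 75 and 57 in the replicates. It lay past the 3′ end of Med, 20 bp from a start site of Mnat9 and 123 bp from that of CG1792, and 5134 bp from the Med start. Within 500 bp of the Med start the pooled list held 51.5 at most, rank 8409.

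**Figure D2:**
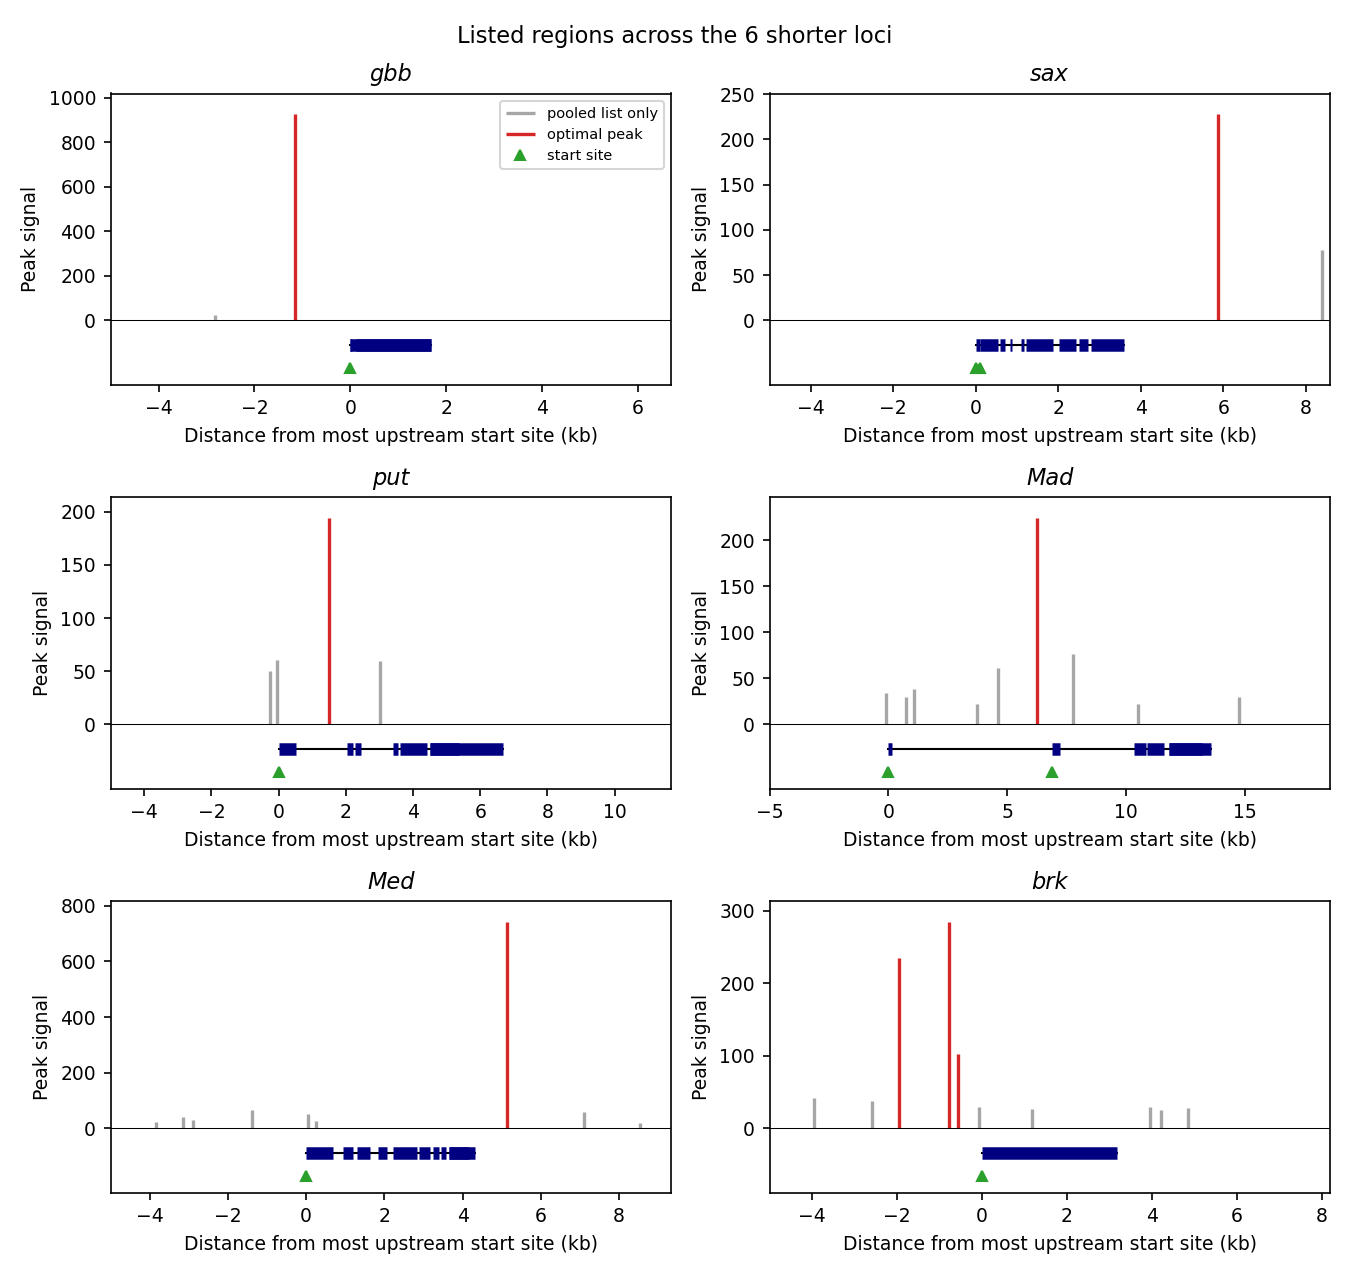
Listed regions in the gbb, sax, put, Mad, Med and brk loci, drawn as signal in the pooled list (vertical axis, scaled to each locus) against distance from the most upstream start site (horizontal axis, kb). Red lines are optimal peaks, grey lines pooled regions alone, blue boxes exons and green triangles start sites. The gbb, sax and Med peaks stand outside the gene body, those of put and Mad in intron 1, and those of brk upstream.

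The nuclear factor shn had a series of peaks through its introns. Its 12 optimal peaks (FBgn0003396, chr2R:11159086-11217394) lay in introns 1 to 5 of 11, and 11 of them (3 overlapping a stronger one) fell in 24 kb between 20.2 and 44.2 kb downstream of the most upstream start, a stretch picked out after its values were seen. The strongest (chr2R:11184415-11184691, signal 458, rank 217) was in intron 3, 1349 bp downstream of the start of shn-RA. Its replicate signals were 89.3, 256 and 114, with ranks 383, 147 and 313. The next, in the same intron, had a signal of 432 (chr2R:11188633-11188901) and ranks 198, 254 and 333. Both stood above all other shn peaks, which ran from 101.06 to 228. Intron 4, of 7.88 kb, held 4 summits at 2 separate sites.

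One of the 5 shn start sites had an optimal summit within 500 bp: the start of shn-RD and shn-RF, with a summit 191 bp upstream (chr2R:11173407-11173816, signal 142). Replicates 1 and 2 ranked it 1186 and 2422, and replicate 3 ranked it 7253. In the top peaks of replicates 1, 2 and 3 the shn locus had 16, 11 and 12 summits, a mean of 13.0 ± 2.65 (SD, n = 3).

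brk, the repressor that the Smad complex and Schnurri silence, had its 3 optimal peaks upstream of its single start site. The strongest (FBgn0024250, chrX:7306960-7307369, signal 284, rank 671) had its summit 774 bp upstream, and a weaker overlapping one of 102 lay 573 bp upstream. The far peak (chrX:7305975-7306099, signal 234, rank 977) lay 1944 bp upstream. Replicate 1 was lowest for both, in relative signal: 1.21 against 2.05 and 2.42 at the near peak, and 0.808 against 1.65 and 2.03 at the far one. The start site itself had a pooled region of 29.6, rank 17629, within 500 bp. Replicate 1 listed a region of rank 3081 there, among its top peaks, while replicates 2 and 3 listed none. brk lies inside the annotated span of CG1677, so these peaks are also intragenic to that gene. The 3 summits lie inside lncRNA:CR44357 as well.

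sbb had the most peaks. Its 17 optimal summits (FBgn0285917, chr2R:18278198-18357296, minus strand) formed 15 separate sites, and 12 of the summits lay in an intron 1 of 49.4 kb. The strongest (chr2R:18338368-18338626, signal 428, rank 273) lay 18802 bp downstream of the most upstream start site. It was the steadiest of the strongest peaks of the 10 loci, with 102, 202 and 120.0 in the replicates, ranks 269, 296 and 268, and a relative signal of 2.79 ± 0.0316 (SD, n = 3). Around it, 10 summits (2 of them overlapping a stronger one) lay within 15.6 kb, from 11.3 to 26.9 kb downstream of the start, a stretch picked out after its values were seen. A further intron 1 peak stood at 49694 bp (chr2R:18307477-18307710, signal 366, rank 392). Its nearest start was that of CG14505, at 3625 bp. Other sbb summits also lay nearer to starts of other genes. That of signal 166 lay inside CG14502, 413 bp from its start. That of 95.5 lay 627 bp from the start of CG14505 and 15843 bp from that of sbb. For those of 111, 113 and 181 the nearest start was that of Tango8, at 2095 to 21525 bp.

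The most upstream sbb start site, used by 5 transcripts, was the only start site of the 10 genes with a peak above the dataset's median signal. Its summit lay 163 bp upstream (chr2R:18357386-18357546, signal 398, rank 318), with ranks 238, 282 and 614 in the replicates. The downstream start site had its nearest summit 747 bp away, in intron 5 (signal 255), and that summit was 682 bp from a start of CG14502. Replicates 1, 2 and 3 had 16, 18 and 17 summits of their top peaks in the sbb locus, a mean of 17.0 ± 1.00 (SD, n = 3). Not all of the weaker sbb peaks repeated: a peak of 134 at 11292 bp from the start ranked 1653 and 2626 in replicates 2 and 3 but 15038 in replicate 1.

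Most summits in these loci were intronic, and the 4 longest loci held 36 of the 38 that were. Of the 46 summits, 38 (82.6%) lay in an intron of the gene itself, 22 of these in intron 1, while 6 lay upstream and 2 downstream of it. Counted over introns of any protein-coding gene the number was 42 (91.3%), against 54.1% of all optimal peaks. None lay in an exon of the gene. A start site of any gene lay within 500 bp of 7 summits (15.2%), against 38.8% over all optimal peaks, and 14 (30.4%) were over 5000 bp from every start site, against 20.3%. The 46 summits were taken for lying in or near these genes, most of them in long loci, while the optimal list was not restricted by place. These intronic and start-site shares are therefore partly set by the choice of genes and by their length. Of the 10 genes 3 (tkv, shn and sbb) had a summit within 500 bp of a start site of their own, and 14.0% of all protein-coding genes did. With only peaks that overlap a top peak of every replicate this number was 1, sbb, and with a 1000 bp window it was 5. Of the 23 start sites of the 10 genes, 3 had an optimal summit within 500 bp and 14 a pooled region of any rank. The 14.0% is a share per gene, and it does not allow for tkv, shn and sbb having 4, 5 and 2 start sites.

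The strongest peak of each locus was ordered by relative signal. gbb stood highest at 6.10 ± 0.398 (SD, n = 3), with 6.11, 5.70 and 6.49 in the replicates. Med followed at 4.83 ± 0.501, with 4.32, 4.84 and 5.32. The replicates of these 2 did not overlap, and both peaks lie at start sites of neighbouring genes. Next came dpp (3.05), shn (2.88 ± 0.589) and sbb (2.79), whose replicates overlapped. brk (1.89 ± 0.623) had the widest spread below these, and its replicates reached from those of put to the lowest of shn, but not to dpp or sbb. tkv (1.86) overlapped with brk and with the highest replicate of sax, but not with Mad or put. Mad (1.48), sax (1.43 ± 0.405) and put (1.29) were lowest, and their replicates overlapped. No replicate of any of the 10 fell below the median optimal peak, and the lowest value was 1.06, for sax in replicate 1.

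**Figure D3:**
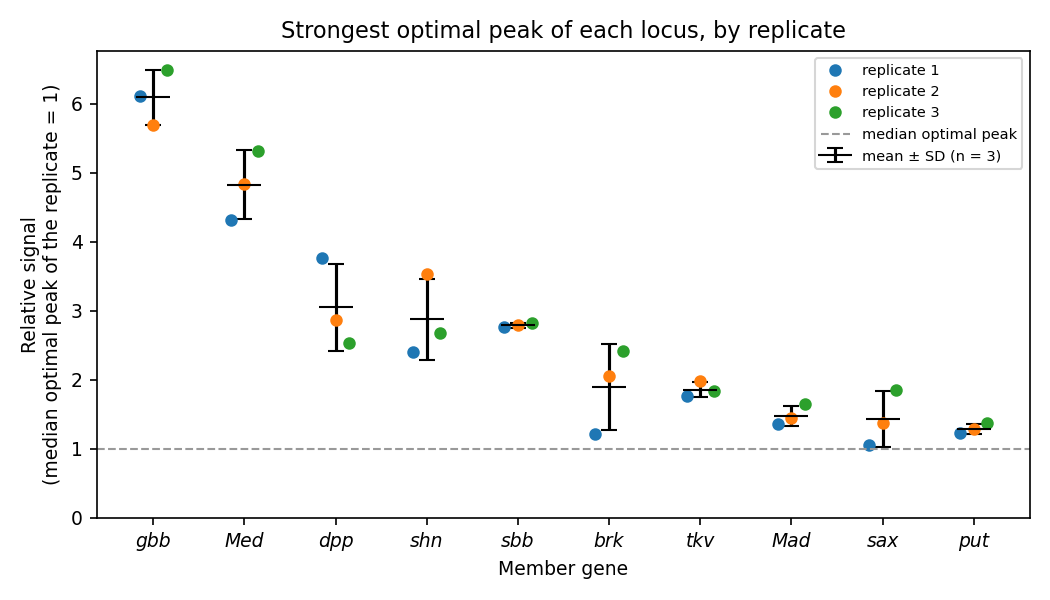
Relative signal (vertical axis, the median optimal peak of a replicate set to 1) of the strongest optimal peak in each of the 10 loci (horizontal axis). Points are the 3 replicates, and bars give the mean and SD; gbb and Med lie above the rest, from 4.32 to 6.49.

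The number of peaks was set beside the length of each locus. In number, sbb was placed second among 13945 protein-coding genes after kirre, which encodes a cell adhesion protein of myoblast fusion and had 19 summits, and shn was placed ninth with 2 genes beside it. Only 25 genes (0.179%) had 10 or more. Loci differ widely in length, and per 10 kb the order changed: brk had 2.27 summits, sbb 1.91 and shn 1.76, while dpp had 0.965, tkv 0.801 and Mad 0.424. The lead of brk rests on the neighbour that overlaps its strongest peak: with overlapping peaks counted once, sbb had 1.68 sites per 10 kb, brk 1.52 and shn 1.32. Over the chromosome arms there were 0.329 per 10 kb. Of all protein-coding genes 2.34% had a higher density than brk, 3.19% than sbb and 5.74% than shn, but 26.5% than tkv and 37.6% than Mad. These shares count overlapping peaks separately, so that of brk includes the overlapping neighbour. The genes nearest to sbb in number of summits were CG1677 (15 in 135 kb) and kirre (19 in 404 kb), followed by 3 genes with 14, of which ush (74.3 kb) was nearest to sbb in locus length. CG1677 is the gene that spans brk, so they share the brk peaks.

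**Figure D4:**
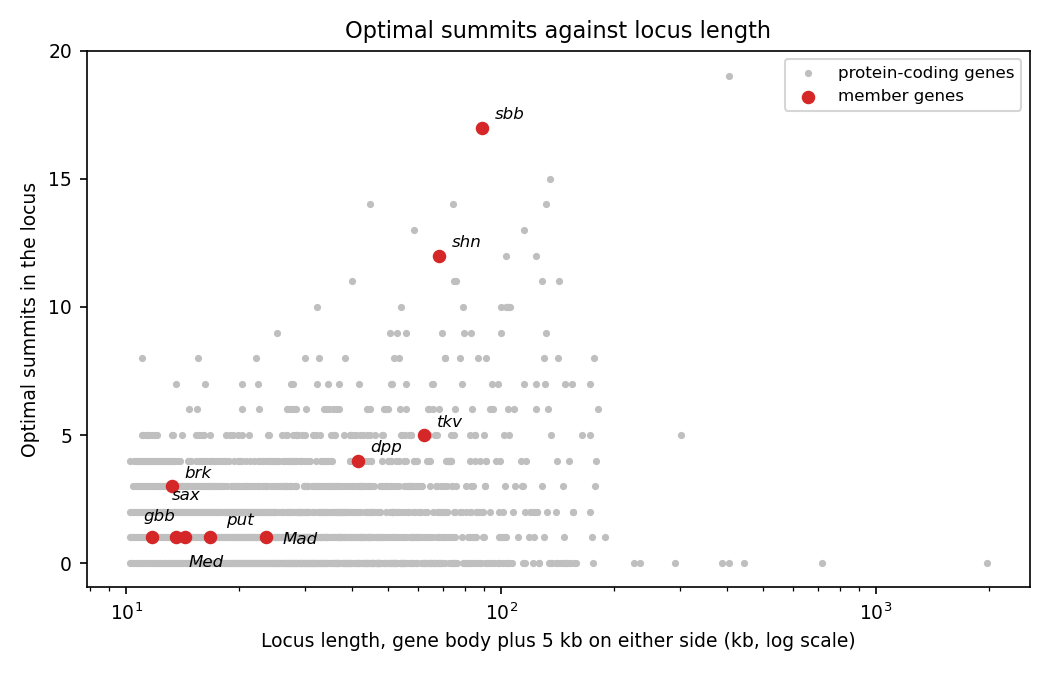
Optimal summits in the locus (vertical axis) against the length of the locus (horizontal axis, kb on a log scale) for all 13945 protein-coding genes in grey and the 10 pathway genes in red. sbb at 17 and shn at 12 stand near the upper edge of the cloud, and gbb, sax, put, Mad and Med at 1.

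Sequence around the 46 summits was richer in A and T than its flanks. Within 50 bp of the summit 64.9% of bases were A or T, against 52.7% in windows of the same width centred 300 bp to either side, a difference of 12.2 percentage points. Over all optimal peaks the difference was 11.5 points (66.5% and 55%), so the pathway peaks were close to the dataset in this. The summit window was higher than its flanks in 38 of 46 peaks (82.6%), beside 82.3% of all optimal peaks. With the replicates' own summits the difference was 13, 15.1 and 16 points, a mean of 14.7 ± 1.54 (SD, n = 3). Leaving out the 6 summits that overlap a stronger peak gave 14.2. The longest unbroken A or T run had a median of 9 bases at these summits and 7 in their flanks, beside 10 and 7 over all optimal peaks.

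**Figure D5:**
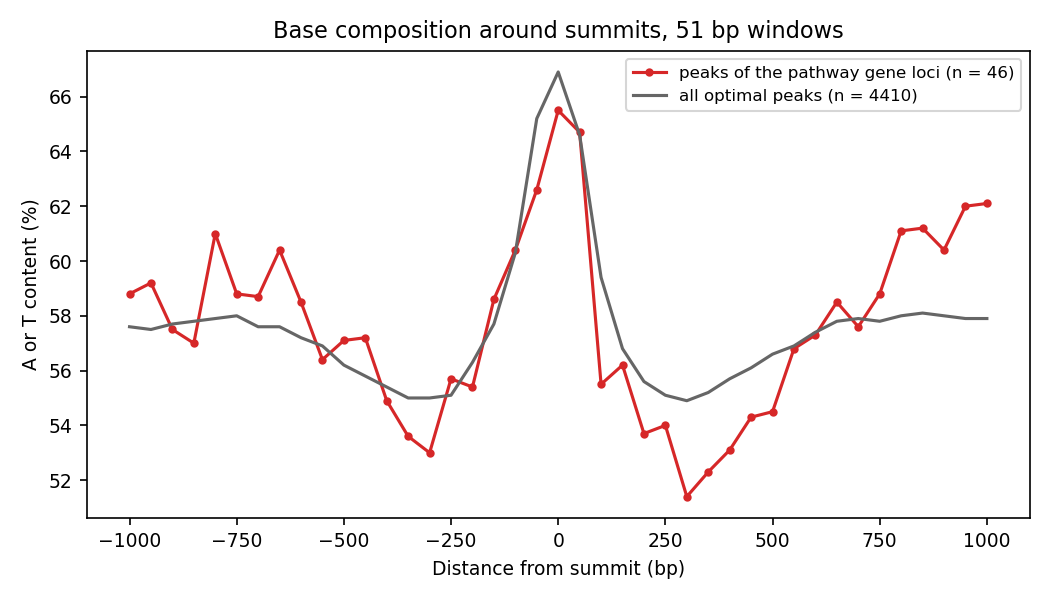
Mean A or T content (vertical axis, %) in windows of 51 bp against distance from the summit (horizontal axis, bp) for the 46 peaks of the pathway genes in red and for all optimal peaks in grey. Both rise at the summit, to 65.5% and 66.9%, and are lowest about 300 bp away.

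Binding words of the pathway's own factors were counted in the same windows on both strands, as a description. The Smad box GTCT was present in 12 of 46 windows (26.1%) and in 26.1% of their flanks, against 30% of all optimal peaks and 36.9% of all flanks. The Mad site GCCGNCG was in none of the 46 windows and in 5 of 92 flanks, with 0.884% of all optimal peaks. The Brinker words GGCGCC and GGCGTC were in 0 and 1 windows, beside 1.11% and 0.975% of all optimal peaks, and the paired Smad box GTCTAGAC was in none, beside 0.0907%. The Schnurri silencer element, searched with any base at its variable positions, was in no summit window of any optimal peak. It was in 1 of 92 flanks of these peaks and in 0.125% of all flanks. The rest of each peak was not searched. A match to such a short word is not a bound site, and its lack says nothing of the factor.

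Words of other factors were also few. The nuclear receptor word AGGTCA was in 4 windows (8.70%): the strongest dpp peak, the tkv peak of 256, 1 of shn and 1 of sbb. Of their flanks 2.17% held it, and of all optimal peaks 2.81%. The GAGA word GAGAG was in 3 windows (6.52%, all optimal peaks 9.37%) and the GATA word AGATAA in 3 (6.52%, 7.85%). The T-box word GGTGTGA was in 1 (2.17%, 0.726%). DREF (TATCGATA), the E box CACGTG and the promoter word GGTCACAC were in none, beside 0.930%, 0.680% and 0.612%. AAAAAA was in 8 (17.4%, 28.5%). Among all words of 6 bases the largest excess over the flanks was for ATTTAA, in 17 windows (37%) and 9.78% of flanks, beside 28.5% of all optimal peaks. AACTCT was in 8 windows and 1 of 92 flanks, beside 5.15%, and was picked out after the counts were seen.

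Other genes of BMP and activin signalling were taken from a list of 49, drawn up with results of these data known. A summit lay in 28 of their loci (57.1%), beside 40.8% of protein-coding genes, and within 500 bp of a start site in 8 (16.3%), beside 14.0%. These loci ran from 10.5 to 103 kb, while the median over protein-coding genes was 12.2 kb. The shares were not matched for locus length or number of start sites, so they show no excess for the pathway. Of 5 other ligand genes only daw, an activin-like ligand, had a summit (125), and scw, mav, Actbeta and myo had none. Both other receptor genes had one, with wit, a type II receptor, highest at 473, rank 194, at 1132 bp from its nearest start. Of 5 Smad and Smad-binding genes 4 had one, led by the inhibitory Smad gene Dad with 4 summits. The highest peaks of Dad and Smox were in the top peaks of all 3 replicates. The only Bx42 peak (99.9) was in those of 1 replicate and the only Sara peak (88.7) in those of 0. The highest Dad signal was 305, at 10246 bp from its nearest start.

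Secreted modulators had a summit in 6 of 11 loci. cv, a BMP-binding protein gene, had the highest signal (458), at 6121 bp from its start. In a locus of 13.1 kb this places the summit in the flank, outside cv itself, and starts of other genes near it were not looked up. magu, which encodes the Dpp modulator Pentagone, had a start-site peak of 367 and the glypican gene dlp one of 157, both in the top peaks of every replicate. Of 8 genes listed as cofactors of transcription 6 had a summit. The 2 without one were Nup93-1 and emb, which are genes of the nuclear pore and of nuclear export and not cofactors in a strict sense. HmgD, a chromatin protein gene, had the highest signal (1015, 1936 bp from its start), and start-site peaks stood at the corepressor gene gro (613), at lilli (163) and at nej, the CBP acetyltransferase gene (136). The gro and lilli peaks were in the top peaks of every replicate and the nej peak of 2 replicates.

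Of 18 genes listed as Dpp targets 9 had a summit. ush, a cofactor of GATA factors, had 14 and the highest signal of the list (1598). Start-site peaks stood at the T-box gene Doc3 (789), the homeobox gene tin (277) and the T-box gene bi (93.2). The first 2 of these were in the top peaks of every replicate and the bi peak of 2 replicates. The wing targets salm and salr, as well as Doc2, pnr, zen, Ance, rho, en and ara, had none in their loci.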

How the data were processed

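The authors deposited ChIP-seq peak lists in a 10-column format for 3 replicates, the 3 pooled and an optimal list, on dm6 and dm3. The deposited signal value per peak (column 7) was the only measurement used. Per the deposited text notes, replicate and pooled lists were called against a control and hold background, and the optimal list was derived from them by IDR. The aligner is not given in the sources used here, nor is the peak caller. No dm3 list was used. Depth per sample is unknown, and the control was not analysed here.

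Genes came from Ensembl release 115 (BDGP6, dm6 coordinates) and sequence from RefSeq Release 6, whose arm lengths held every peak and gene. Transposable elements were left out. A summit was the start plus its offset, counted from 1. Introns are stretches that no transcript of the gene keeps as exon, numbered from its 5′ end. Replicate support was an overlap of 1 bp or more with a top peak of a replicate.

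Every member gene was named; for each, its strongest optimal peak and all start-site peaks were to be given, and of the other pathway genes those with a start-site peak and the highest per class. The members, gene lists and words were chosen with earlier results of these data known. The replicates come from 1 line, and no p-value is given. The counting step was tested on simulated data. Python 3.11.15, pandas 2.3.3 and numpy 2.4.6 were used.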

Additional observations from a re-analysis of the deposited data

How the results depend on the processing

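Counting the gene body alone left 6 of the 10 genes and 16 of the 49 other pathway genes with a summit. With flanks of 2 and 10 kb both counts stayed within 1.5 times the reported ones. The stricter list, its stronger 50% by signal, left 28 summits in the 10 loci and a start-site summit in 1 gene. Peaks that overlap a top peak of every replicate also left 1. A 1000 bp window gave 5 genes, as did counting any base of a peak. For the other pathway genes, start-site counts were 4 within 200 bp and 14 within 1000 bp. Flanks centred 500 bp away gave an A or T difference of 9.37 points. Merging overlapping peaks, an alternative chosen after seeing the data, gave 14.2. Peaks supported by every remaining replicate numbered 37 to 40 when 1 replicate was left out, a change that can only raise the count. Ordering them by mean rank swapped tkv with brk and shn with sbb. No paired analysis was possible because there is 1 group. Unknown depth limits what the absence of a peak shows.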
